A study of Mus musculus with 23 samples.

Results

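Ankrd1, Lrrc10, Ndrg4, Csrp3 and Rcan1 are 5 genes of heart muscle that had earlier been seen to be lower in embryonic mouse hearts with reduced G-protein coupled receptor kinases (GRKs), and they were picked by name for that difference. They are 5 of the 23512 features of the count table, and all 5 passed the filter on low counts that left 13941 genes for testing. Their difference from wild type is therefore a description here and carries no test. What the choice did not use, and what is asked here, is whether the 5 genes rose and fell together from heart to heart within a genotype, and whether they differed between the 2 GRK genotypes.

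A heart muscle cell senses stretch at the Z-disc, where titin, actin and adaptor proteins meet, and along the titin filament itself. Csrp3 (muscle LIM protein) is a Z-disc adaptor, and Ankrd1 (cardiac ankyrin repeat protein) binds the elastic part of titin and also moves to the nucleus. Both are known to rise with load on the heart. Lrrc10 is a leucine-rich repeat protein largely restricted to cardiac muscle that lies near Z-discs and T-tubules, and Ndrg4, a member of the N-myc downstream regulated family of heart and brain, is needed for growth of the embryonic heart in zebrafish. Rcan1 encodes an inhibitor of calcineurin, the calcium-dependent phosphatase that activates NFAT transcription factors, and its downstream promoter is itself an NFAT target. Rcan1 is also made by cells other than muscle, endothelium among them, so the group's shared name fits Ankrd1 and Csrp3 more closely than Ndrg4 and Rcan1.

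RNA came from hearts at embryonic day 13.5 in 3 genotypes, all labelled C57BL/6. The 7 triple-knockout hearts were GRK2 fl/fl and GRK5 fl/fl, with both alleles floxed, and were GRK6 KO/KO, and they carried Nkx2.5Cre, a Cre recombinase driver active in the cardiac lineage. The 8 haploinsufficient hearts were GRK2 fl/wt, which keeps a wild-type allele, and were otherwise GRK5 fl/fl and GRK6 KO/KO with Nkx2.5Cre like the triple knockouts. The 8 wild-type hearts had all 3 kinases unmodified and no Cre, so that the effects of the Cre driver and of the kinases cannot be told apart in a comparison with wild type. Grk6 carries by label a knockout and not a floxed allele in both GRK genotypes, while floxed Grk2 and Grk5 remain in cells in which Cre was never active. Whole hearts were sequenced, so fewer cells of a type and less RNA per cell cannot be told apart. The labels do not say that each library is a separate embryo, and p-values measure the spread between these libraries, which may be partly technical.

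Total counts per library ran from 6657734 to 13864731 in the triple-knockout group, from 1757257 to 11025358 in the haploinsufficient group and from 3838166 to 14050559 in the wild-type group. Summed counts of the targeted genes were lower in triple knockouts for Adrbk1 (the symbol of Grk2; log2 fold change against wild type -0.65, edgeR adjusted p = 0.0125), Grk5 (-0.76, adjusted p = 0.0023) and Grk6 (-1.04, adjusted p = 0.000158). In haploinsufficient hearts Grk5 (-0.85, adjusted p = 0.000659) and Grk6 (-0.94, adjusted p = 0.000563) fell, and Adrbk1 had a log2 fold change of -0.33 that did not pass (edgeR adjusted p = 0.207). Hearts were heart muscle by their RNA: none of 20 heart muscle reference genes was at 0, and their summed level ran from 35980 to 71660 CPM (read counts scaled to library size) in triple-knockout, from 39370 to 69140 CPM in haploinsufficient and from 48520 to 61950 CPM in wild-type libraries. A carry-over score, the mean log2 level of 17 genes of lung, foregut, liver and thymus relative to the wild-type mean, was high in part of the libraries. It lay above 1.5 in triple-knockout replicates 1, 2, 3 and 7, in haploinsufficient replicates 1, 7 and 8 and in wild-type replicate 4. The scores run on across this cut: haploinsufficient replicate 4, at 1.14, was kept, and triple-knockout replicate 2, at 1.54, was left out. The members' differences from wild type, the counts of called genes in some of the lists and the pooled correlations are also given without the libraries above 1.5. The summed level of those 17 genes was 62.03 to 243 CPM in triple-knockout, 67.65 to 366.4 CPM in haploinsufficient and 48.25 to 128 CPM in wild-type libraries, and none of the 17 was at 0 in every library.

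Because the question is whether these genes move together, the stretches around their start sites are shown first. All 5 symbols matched the RefSeq promoter table (GRCm38.p6, the mm10 assembly of the files), which gives 250 bases before and 50 after each start. The starts shown lie within 50 bases of a first exon of the authors' annotation. Capitals mark 4 short motifs on either strand: CATTCC (the M-CAT element of TEAD factors), GATAA (GATA factors), AAGTG (NKX2-5) and GGAAA (the core of NFAT sites). Rcan1 and Csrp3 have 2 first exons each in the authors' annotation, and for Rcan1 the downstream start is shown because it is the one known for NFAT.
Ankrd1 chr19:36119795-36120094 (- strand): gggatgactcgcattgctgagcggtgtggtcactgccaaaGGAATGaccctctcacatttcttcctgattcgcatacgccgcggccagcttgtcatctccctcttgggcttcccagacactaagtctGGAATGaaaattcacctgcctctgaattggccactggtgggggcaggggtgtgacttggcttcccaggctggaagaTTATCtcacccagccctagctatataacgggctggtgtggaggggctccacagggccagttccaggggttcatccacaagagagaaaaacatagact
Lrrc10 chr10:117045091-117045390 (+ strand): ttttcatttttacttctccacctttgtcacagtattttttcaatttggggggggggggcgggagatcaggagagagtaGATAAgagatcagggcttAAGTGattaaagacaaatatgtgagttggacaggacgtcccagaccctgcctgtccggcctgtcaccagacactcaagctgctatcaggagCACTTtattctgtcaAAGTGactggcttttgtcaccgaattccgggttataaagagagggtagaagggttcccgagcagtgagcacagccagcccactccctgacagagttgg
Ndrg4 chr8:95702806-95703105 (+ strand): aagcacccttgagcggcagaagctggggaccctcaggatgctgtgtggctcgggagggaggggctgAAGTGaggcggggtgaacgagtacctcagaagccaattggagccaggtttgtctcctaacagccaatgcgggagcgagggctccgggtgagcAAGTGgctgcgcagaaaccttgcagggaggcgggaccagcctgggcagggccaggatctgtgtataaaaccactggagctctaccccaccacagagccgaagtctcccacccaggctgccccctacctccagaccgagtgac
Csrp3 chr7:48848002-48848301 (- strand): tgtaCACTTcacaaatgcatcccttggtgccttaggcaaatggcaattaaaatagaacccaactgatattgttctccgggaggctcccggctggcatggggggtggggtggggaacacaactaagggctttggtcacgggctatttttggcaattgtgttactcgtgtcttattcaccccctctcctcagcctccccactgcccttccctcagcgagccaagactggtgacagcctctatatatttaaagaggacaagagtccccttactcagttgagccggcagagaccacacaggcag
Rcan1 chr16:92400029-92400328 (- strand): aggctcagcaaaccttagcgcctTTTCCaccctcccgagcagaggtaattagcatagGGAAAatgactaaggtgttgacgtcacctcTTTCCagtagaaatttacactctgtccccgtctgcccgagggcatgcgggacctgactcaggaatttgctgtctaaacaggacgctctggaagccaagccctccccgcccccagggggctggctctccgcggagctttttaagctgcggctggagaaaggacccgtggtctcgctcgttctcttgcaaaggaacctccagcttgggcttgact
The 5 stretches hold no motif in common. The Ankrd1 promoter holds 2 M-CAT matches and 1 GATA match, the Lrrc10 promoter 1 GATA match and 3 NKX2-5 matches, the Ndrg4 promoter 2 NKX2-5 matches, the Csrp3 promoter 1 NKX2-5 match, and the downstream Rcan1 promoter 3 NFAT cores. At the other starts near a first exon of the annotation, not shown, the second Csrp3 stretch holds 1 NFAT core and no NKX2-5 match, and the upstream Rcan1 stretch holds none of the 4 motifs. Such short words are common: among 32817 promoters of the same length 14.7% held CATTCC, 25.4% GATAA, 46.4% AAGTG and 61.3% GGAAA, on either strand. A match is a description of the letters and does not show a bound site.

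In the authors' mm10 annotation Ankrd1 lies on chr19:36111965-36119844 (minus strand, 9 exons), Lrrc10 on chr10:117045341-117046768 (plus strand, 1 exon), Ndrg4 on chr8:95703037-95715119 (plus strand, 15 exons), Csrp3 on chr7:48830398-48848051 (minus strand, 7 exons) and Rcan1 on chr16:92391953-92466146 (minus strand, 5 exons). Each is on a chromosome of its own. Counts are sums over the exons of a gene, so that the Rcan1 and Csrp3 values do not separate transcripts from their 2 first exons. The exons of no other gene in that annotation lie within any of the 5 spans, although the libraries did not keep the strand.

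Levels between genes were compared on the authors' FPKM values, which are scaled to transcript length. Csrp3 had the highest level, at 651 ± 134 FPKM in triple-knockout, 719 ± 80.3 FPKM in haploinsufficient and 876 ± 60.5 FPKM in wild-type hearts (SD, n = 7, 8 and 8). Ankrd1 followed at 341 ± 63 FPKM in triple-knockout, 317 ± 52.4 FPKM in haploinsufficient and 498 ± 58.9 FPKM in wild-type hearts, below Csrp3 in every one of the 23 libraries. Lrrc10 was lowest at 21.3 ± 4.74 FPKM in triple-knockout, 19.9 ± 6.26 FPKM in haploinsufficient and 37.9 ± 7.95 FPKM in wild-type hearts, also in every library. Between them, the order of Ndrg4 and Rcan1 depended on genotype. Ndrg4 had 48.3 ± 7.17 FPKM in triple-knockout, 49.3 ± 12.4 FPKM in haploinsufficient and 98.6 ± 9.72 FPKM in wild-type hearts, against 53.2 ± 6.6, 56 ± 6.41 and 76.2 ± 6.4 FPKM for Rcan1 in the same 3 groups. Ndrg4 was above Rcan1 in 1 of 7 triple-knockout and 3 of 8 haploinsufficient libraries and in 8 of 8 wild-type libraries. The FPKM ranges of these 2 genes overlapped in each group.

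The Z-disc and titin-linked members come first. Ankrd1 had 471.5, 421.8, 633.3, 755.2, 671.9, 595.4 and 437.2 CPM in triple-knockout replicates 1 to 7, from 445.1 through a median of 545.6 to 724.4 CPM in haploinsufficient libraries, and from 730.3 through 835 to 1045 CPM in wild-type libraries. All 8 haploinsufficient libraries and 6 of 7 triple-knockout libraries lay below the lowest wild-type library, the exception being triple-knockout replicate 4. Here and for each member below, the genes were picked on this difference and the share of all genes without overlap was not counted. Nothing is therefore read from such counts. The log2 fold change of Ankrd1 was -0.58 (SE 0.12) in triple-knockout and -0.62 (SE 0.12) in haploinsufficient hearts, each against wild type.

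Csrp3 had the smallest difference of the 5. It had 324.3, 398.9, 465, 678.2, 584.8, 563.9 and 382.7 CPM in triple-knockout replicates 1 to 7, from 439.7 through 574.7 to 618.4 CPM in haploinsufficient libraries and from 596.2 through 657.8 to 772.5 CPM in wild-type libraries. Triple-knockout replicate 4 lay above the wild-type median, and 4 of 8 haploinsufficient libraries lay within the wild-type range. The log2 fold change was -0.47 (SE 0.12) in triple-knockout and -0.25 (SE 0.12) in haploinsufficient hearts, each against wild type.

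Lrrc10, the cardiac leucine-rich repeat gene, had 22.04, 30.27, 28.94, 34.41, 31.56, 33.79 and 14.89 CPM in triple-knockout replicates 1 to 7, from 12.86 through 30.66 to 36.56 CPM in haploinsufficient libraries and from 32.97 through 51.87 to 66.02 CPM in wild-type libraries. Wild-type replicate 3 was the library that reached down into the range of the GRK groups, and the other 7 lay above every haploinsufficient library. Lrrc10 was also the member with the fewest reads, 22 in haploinsufficient replicate 2, the shallowest library, against 205 at most in that group. Its log2 fold change was -0.86 (SE 0.18) in triple-knockout and -0.89 (SE 0.17) in haploinsufficient hearts, each against wild type.

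Ndrg4 had the largest fold change of the 5. It had 116.2, 153, 130.2, 164.9, 157.9, 166.6 and 98.59 CPM in triple-knockout replicates 1 to 7, from 94.89 through 145.2 to 195.4 CPM in haploinsufficient libraries and from 240.8 through 293.5 to 350 CPM in wild-type libraries. No library of either GRK genotype reached the lowest wild-type library. The members were picked on this difference, and the share of all genes without overlap was not counted, so nothing is read from it. The log2 fold change was -1.07 (SE 0.14), a ratio of 0.476, in triple-knockout and -0.99 (SE 0.13), a ratio of 0.504, in haploinsufficient hearts, each against wild type.

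Rcan1, the calcineurin inhibitor, had 100.3, 119.2, 113.3, 123.9, 138.6, 118.6 and 84.69 CPM in triple-knockout replicates 1 to 7, from 102.8 through 126.8 to 146.1 CPM in haploinsufficient libraries and from 147 through 160 to 195.2 CPM in wild-type libraries. As for Ndrg4, and with the same limit, neither GRK genotype overlapped wild type. The gap between the highest haploinsufficient and the lowest wild-type library was under 1 CPM. The log2 fold change was -0.55 (SE 0.10) in triple-knockout and -0.42 (SE 0.09) in haploinsufficient hearts, each against wild type.

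**Figure D1:**
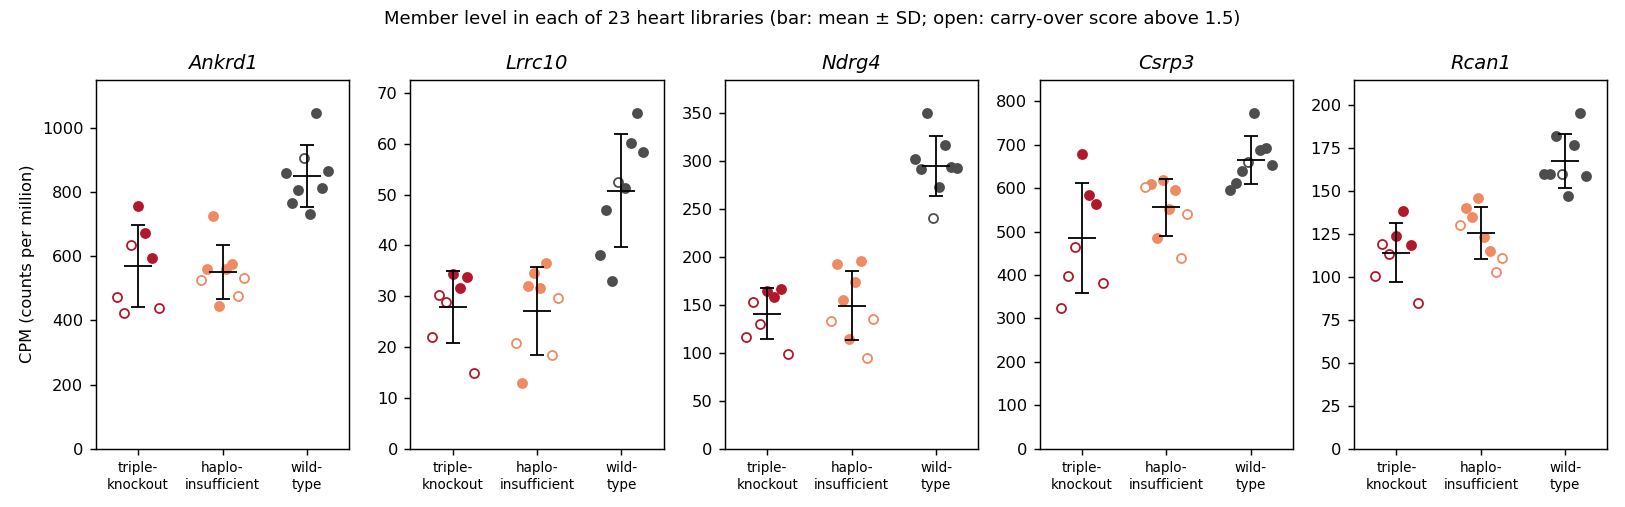
CPM of each member (y axis, from 0) in each library of the 3 genotypes (x axis); points are libraries, bars are means ± SD, and open points have a carry-over score above 1.5. Ndrg4 and Rcan1 do not overlap between either GRK genotype and wild type, a difference on which the members were picked. The share of all genes without overlap was not counted. Csrp3 in triple knockouts spreads from 324.3 to 678.2 CPM.

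With the threshold used for all genes (edgeR quasi-likelihood test, Benjamini-Hochberg adjusted p under 0.05), 5 of the 5 members were called lower in triple knockouts against wild type, where 1.18% of 13941 genes were called. In haploinsufficient hearts 4 of 5 were called lower against wild type, Csrp3 being the exception, where 2.24% of genes were called. Without libraries of carry-over score above 1.5 these counts were 1 of 5 (Ndrg4) in triple knockouts, with 3 of their libraries left, and 2 of 5 (Ankrd1 and Ndrg4) in haploinsufficient hearts, with 5 left. All these counts follow from how the members were picked, and nothing is read from them. The 2 comparisons share the same 8 wild-type libraries.

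The comparison of the 2 GRK genotypes, which differ by label in 1 Grk2 allele, was not used to pick the genes. Of the 5 members 0 were called there by the edgeR quasi-likelihood test, where 0.395% of all genes were called, and 0 were at an unadjusted p under 0.05. DESeq2, which called 274 genes in this comparison, called 0 of the 5. The log2 fold change of triple knockouts against haploinsufficient hearts was 0.04 for Ankrd1 (95% interval -0.21 to 0.29, edgeR adjusted p = 0.909), 0.03 for Lrrc10 (-0.35 to 0.40, adjusted p = 0.964) and -0.08 for Ndrg4 (-0.36 to 0.20, adjusted p = 0.823). For Rcan1 it was -0.13 (-0.33 to 0.08, edgeR adjusted p = 0.557). Csrp3 had the widest separation, -0.22 (-0.47 to 0.03, edgeR adjusted p = 0.384), with 3 of 7 triple-knockout libraries below the lowest haploinsufficient library. It depended on the libraries of high carry-over score: without those above 1.5 it was 0.02 (edgeR adjusted p = 0.995). The missed threshold does not show that the 2 genotypes are alike: the widest interval, that of Lrrc10, spans a log2 fold change of -0.35 to 0.40.

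The difference from wild type was recomputed without the libraries of high carry-over score. Without the libraries of carry-over score above 1.5, which left 3 triple-knockout, 5 haploinsufficient and 7 wild-type libraries, the log2 fold change of triple knockouts against wild type was -0.92 (SE 0.15) for Ndrg4, -0.79 (SE 0.19) for Lrrc10, -0.38 (SE 0.12) for Rcan1, -0.34 (SE 0.16) for Ankrd1 and -0.18 (SE 0.13) for Csrp3. The Ankrd1 and Csrp3 differences of triple knockouts thus were smaller by more than 1.5 times, while those of Ndrg4, Lrrc10 and Rcan1 moved by less. For haploinsufficient hearts against wild type the same values were -0.87 (SE 0.12) for Ndrg4, -0.65 (SE 0.16) for Lrrc10, -0.55 (SE 0.13) for Ankrd1, -0.38 (SE 0.10) for Rcan1 and -0.20 (SE 0.11) for Csrp3.

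Library IDs fall into 2 runs of numbers (1 to 12 and 19 to 30), treated as sets 1 and 2. None of the 5 members was called between the sets (edgeR adjusted p from 0.675 to 0.956, 0 at an unadjusted p under 0.05), where 0.194% of all genes were called. Within set 1, triple knockouts against wild type had a log2 fold change of -1.14 for Ndrg4, -0.71 for Ankrd1, -0.66 for Csrp3, -0.64 for Lrrc10 and -0.57 for Rcan1. Within set 2 these were -1.01 for Ndrg4, -0.50 for Ankrd1, -0.35 for Csrp3, -1.05 for Lrrc10 and -0.55 for Rcan1. Haploinsufficient hearts against wild type had -0.56, -0.11, -0.72 and -0.26 for Ankrd1, Csrp3, Lrrc10 and Rcan1 within set 1, and -0.69, -0.40, -1.04 and -0.59 within set 2; Ndrg4 had -0.996 and -0.98 in the same sets. Every one of these 20 values was below 0. For triple knockouts against haploinsufficient hearts, Csrp3 had -0.54 (SE 0.16, edgeR adjusted p = 0.112) within set 1 and 0.05 (SE 0.15, adjusted p = 0.936) within set 2. All 3 triple-knockout libraries of set 1 had a carry-over score above 1.5, as had replicate 7 of the 4 in set 2.

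**Figure D2:**
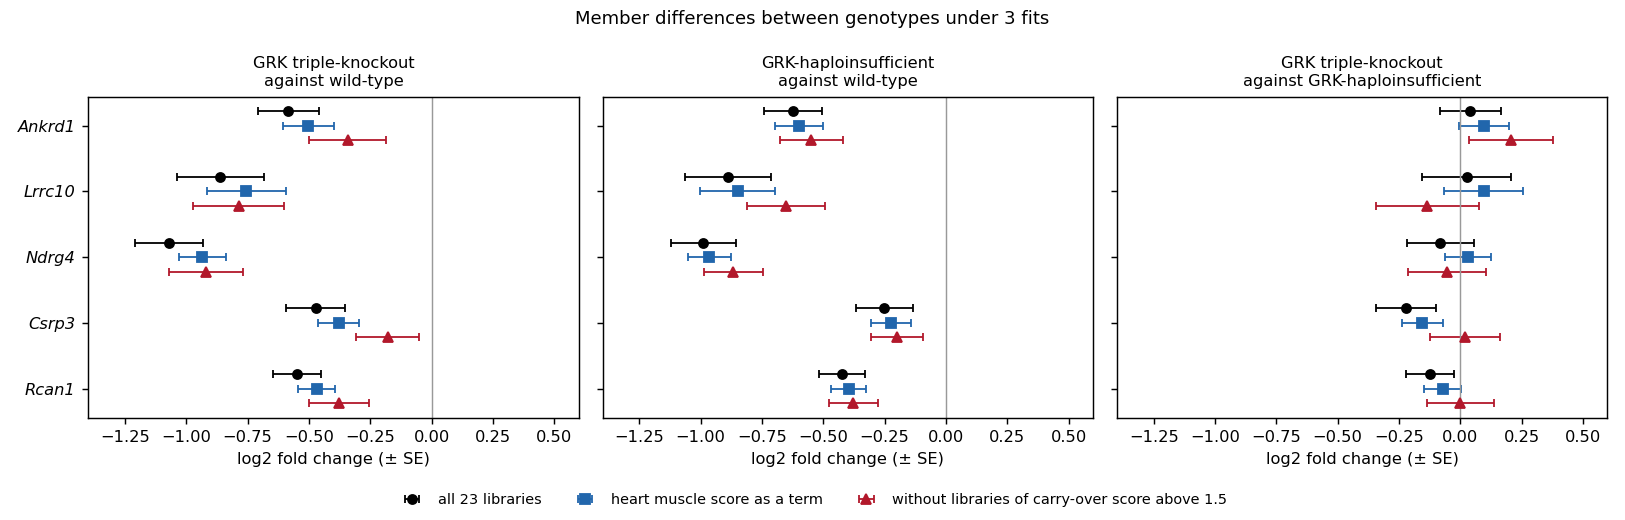
Log2 fold change ± SE (x axis) of each member (y axis) for the 3 genotype comparisons, from all 23 libraries, with the heart muscle score as a further term, and without libraries of carry-over score above 1.5. Ndrg4 stays between -1.07 and -0.87 against wild type in all 3 fits, and in the comparison of the 2 GRK genotypes the values lie between -0.22 and 0.21.

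Whether the members move together was read within each genotype, from the log2 CPM of the 10 pairs of members across the libraries of that group. In triple knockouts all 10 pairs had a positive Pearson's r, with a median of 0.74 and a range of 0.60 to 0.96 (n = 7). In haploinsufficient hearts the median was 0.14, from -0.20 to 0.61, with 8 of 10 pairs positive, and in wild-type hearts 0.10, from -0.44 to 0.52, with 6 of 10 positive (n = 8 each). The haploinsufficient median depended on single libraries: it was -0.211 without replicate 7, 0.419 without replicate 2 and 0.474 without replicate 4. Over all pairs of tested genes the median r was -0.002 in triple-knockout, -0.001 in haploinsufficient and -0.002 in wild-type libraries, and over pairs of the 5593 genes at or above the level of the lowest member it was 0.024, 0.012 and 0.009 in the same 3 groups. Whether r differs between genotypes was not tested.

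Few single pairs passed the test. Over the 30 pairs of the 3 groups, 1 pair had an adjusted p under 0.05 for r: Lrrc10 and Ndrg4 in triple knockouts. This pair had r = 0.961 (exact permutation p = 0.000397, adjusted p = 0.0119) and Spearman's rho = 0.964 (exact permutation p = 0.00278, adjusted p = 0.0833). Its r was 0.899 without the 2 libraries farthest from the median of Lrrc10. Ndrg4 and Rcan1 in triple knockouts had r = 0.915 (exact permutation p = 0.00357, adjusted p = 0.0536) and rho = 0.75 (exact permutation p = 0.0663, adjusted p = 0.221), and r was 0.481 without the 2 farthest libraries. Lrrc10 and Rcan1 had r = 0.925 (exact permutation p = 0.00794, adjusted p = 0.0794) and rho = 0.821 (exact permutation p = 0.0341, adjusted p = 0.146), and without 2 libraries r was 0.301, so that this relation rested on them. In haploinsufficient and in wild-type hearts 0 of 10 pairs reached an unadjusted p under 0.05 for r by the exact permutation test. By rank, Ankrd1 and Ndrg4 in haploinsufficient hearts came nearest, with rho = 0.833 (exact permutation p = 0.0154, adjusted p = 0.146) and r = 0.611 (exact permutation p = 0.102, adjusted p = 0.305).

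The libraries behind this pattern can be read one by one. Triple-knockout replicate 7 was the lowest of its group for Lrrc10, Ndrg4 and Rcan1 and among the lowest 2 for all 5 members. Triple-knockout replicates 4, 5 and 6 ranked between 4 and 7 for every member, replicate 4 being highest for Ankrd1, Lrrc10 and Csrp3. In the haploinsufficient group replicate 7 was lowest for Ndrg4, Csrp3 and Rcan1 and among the lowest 2 for all 5. In wild-type hearts replicate 6 ranked 6 to 8 of 8 and replicate 2 ranked 2 to 3 for all 5 members, while replicates 3 and 5 each ranged from 1 to 8; replicate 3 had the highest Ndrg4 and the lowest Lrrc10 of its group.

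**Figure D3:**
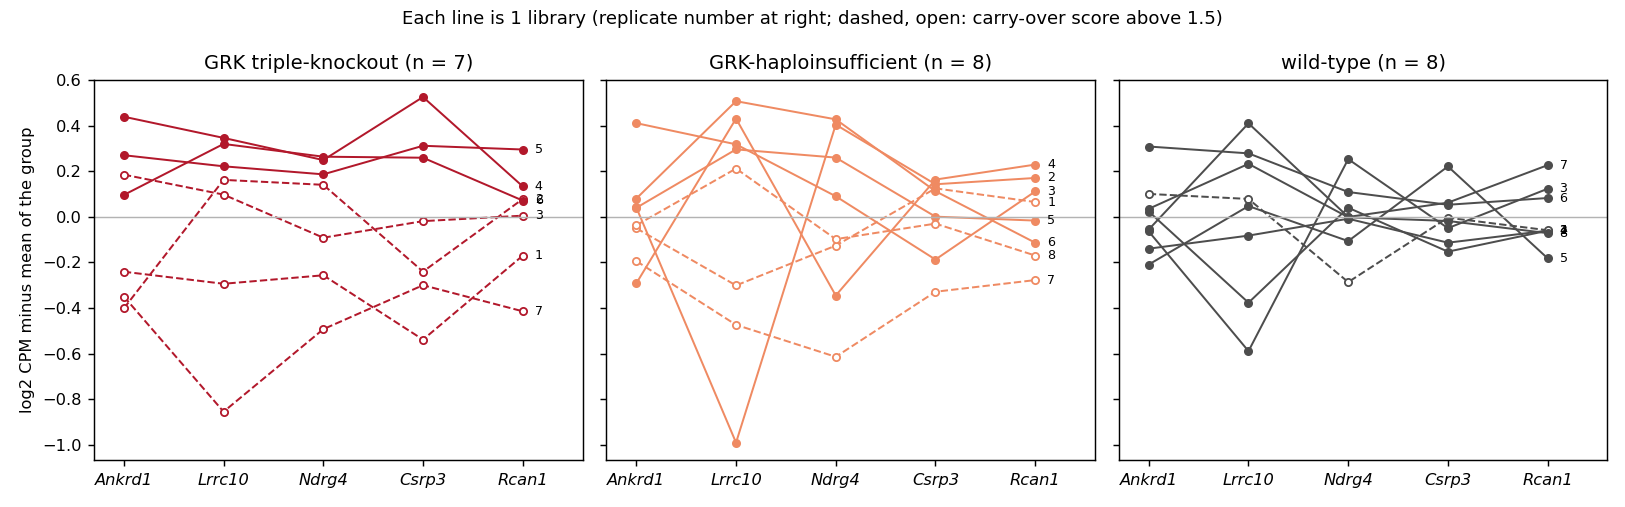
Log2 CPM of each member minus the mean of its group (y axis) for the 5 members (x axis), 1 line per library, in the 3 genotypes; dashed lines with open points have a carry-over score above 1.5. In triple knockouts replicates 4, 5 and 6 run above 0 for all 5 members and replicates 1 and 7 below 0, whereas the lines of wild-type replicates 3 and 5 cross the others.

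Triple-knockout libraries low for the members were also low for heart muscle genes as a whole. A heart muscle score, the mean log2 CPM of 20 reference genes of contraction and energy supply that holds none of the members, was 10.12 ± 0.38 in triple-knockout, 10.24 ± 0.27 in haploinsufficient and 10.28 ± 0.06 in wild-type libraries (SD, n = 7, 8 and 8). In triple knockouts its range was 9.6 to 10.53, and the libraries fell into 2 sets on the carry-over score: 4 at 1.54 to 2.82 with a heart muscle score of 9.6 to 10.08, and 3 at -0.34 to 0.08 with a heart muscle score of 10.38 to 10.53. Csrp3 had 324.3 to 465 CPM in those 4 libraries and 563.9 to 678.2 CPM in the other 3. Ndrg4 had 98.59 to 153 CPM in the 4 and 157.9 to 166.6 CPM in the 3, and Lrrc10 14.89 to 30.27 and 31.56 to 34.41 CPM in the same 2 sets. Ankrd1 (421.8 to 633.3 and 595.4 to 755.2 CPM) and Rcan1 (84.69 to 119.2 and 118.6 to 138.6 CPM) overlapped between them. With under 6 libraries in each set, r within a set cannot be given.

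Across all triple-knockout libraries the 5 members had r with the heart muscle score from 0.798 (Ankrd1) to 0.933 (Csrp3). After adjustment over the 48 relations computed with scores and depth, 4 of 5 passed for r, and 0 for rho. The 4 and 3 libraries do not overlap on this score either, at 9.6 to 10.08 and 10.38 to 10.53. The heart muscle score does not itself form these 2 sets. Among the 4, replicates 1 and 7 had 9.66 and 9.60, and replicates 2 and 3 had 10.08 and 10.04. These r values may in part measure the difference between the 4 and the 3 libraries, which was not tested. For Csrp3, r was 0.933 (exact permutation p = 0.00417, adjusted p = 0.0333) and rho 0.929 (exact permutation p = 0.00675, adjusted p = 0.0695), and r was 0.961 without the 2 farthest libraries. For Ndrg4, r was 0.932 (exact permutation p = 0.00139, adjusted p = 0.0222) and rho 0.893 (exact permutation p = 0.0123, adjusted p = 0.0923), and r was 0.901 without the 2 farthest libraries. For Ankrd1, r was 0.798 (exact permutation p = 0.0448, adjusted p = 0.127) and rho 0.714 (exact permutation p = 0.0881, adjusted p = 0.249). In haploinsufficient hearts Ndrg4 passed, with r = 0.818 (exact permutation p = 0.0101, adjusted p = 0.0486), rho = 0.833 (exact permutation p = 0.0154, adjusted p = 0.0923) and r = 0.847 without 2 libraries. The carry-over score parted the same 4 and 3 triple-knockout libraries, in the opposite direction, as the values of the 2 sets above show. Over the 7 libraries the members had r with the carry-over score from -0.904 (Csrp3) to -0.709 (Ankrd1), and 3 of 5 passed for r, and 0 for rho. The 4 and 3 libraries overlap on neither score, and a relation within a set cannot be tested. Lower heart muscle score and higher carry-over score cannot be told apart in that group, so taking out the heart muscle score is not separate from taking out the carry-over score. In wild-type hearts, where the heart muscle score spans 10.21 to 10.37, none of the 5 passed, and Ndrg4 had the highest r, 0.778 (exact permutation p = 0.0176, adjusted p = 0.0651) with rho = 0.667 (exact permutation p = 0.0831, adjusted p = 0.249), which was 0.509 without 2 libraries. No relation with library size passed in any group; the nearest was Rcan1 in haploinsufficient hearts, with r = -0.803 (exact permutation p = 0.0119, adjusted p = 0.0521) and rho = -0.81 (exact permutation p = 0.0218, adjusted p = 0.104).

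**Figure D4:**
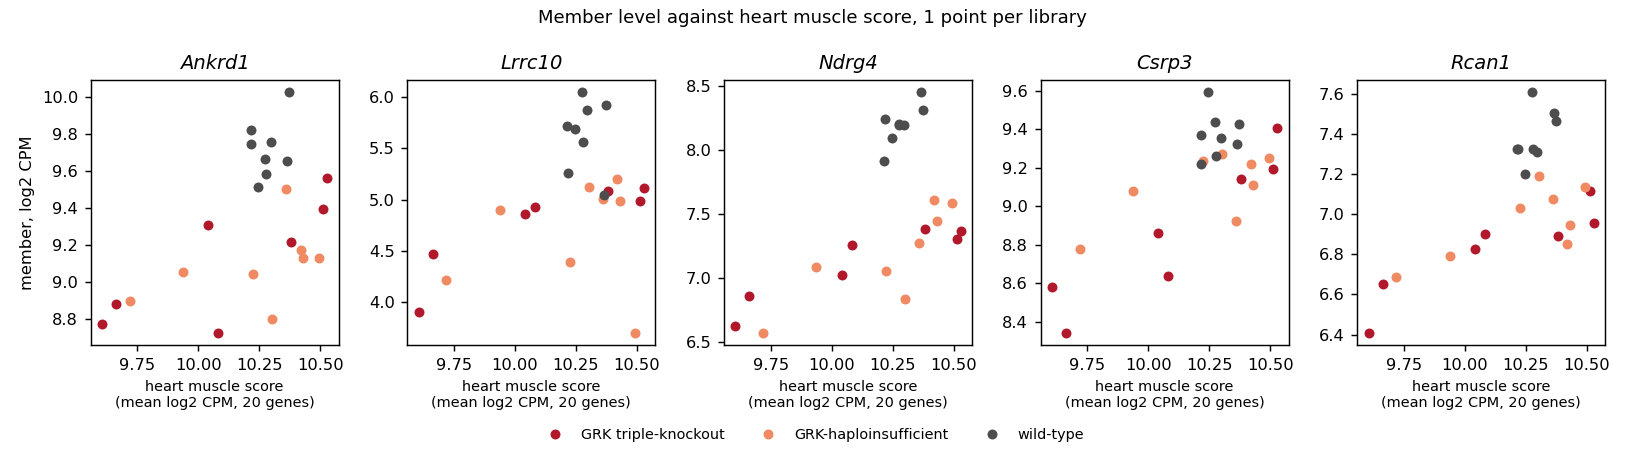
Log2 CPM of each member (y axis) against the heart muscle score (x axis, mean log2 CPM of 20 genes) in each library of the 3 genotypes. Triple-knockout libraries lie at 9.6 to 10.08 or at 10.38 to 10.53 on the score, outside the 10.21 to 10.37 of wild-type libraries. Haploinsufficient libraries span 9.72 to 10.49. Most GRK points thus have no wild-type point of similar score to be set against.

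Both the shared movement and the difference from wild type were recomputed with the heart muscle score taken out. With the score removed by regression within the group, the median pairwise r was -0.20 in triple-knockout (4 of 10 pairs positive), -0.12 in haploinsufficient (3 of 10) and -0.01 in wild-type libraries (5 of 10). In triple knockouts the pairs that remained positive were Lrrc10 with Ndrg4 (0.811), Lrrc10 with Rcan1 (0.628), Ndrg4 with Rcan1 (0.457) and Ankrd1 with Csrp3 (0.635), while Csrp3 with Rcan1 was at -0.865. These values are descriptions on 7 libraries. As background, the 20 reference genes had a median pairwise r among themselves of 0.886 in triple-knockout, 0.544 in haploinsufficient and 0.201 in wild-type libraries, and the members' median r with them was 0.844, 0.436 and 0.09 in the same 3 groups.

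**Figure D5:**
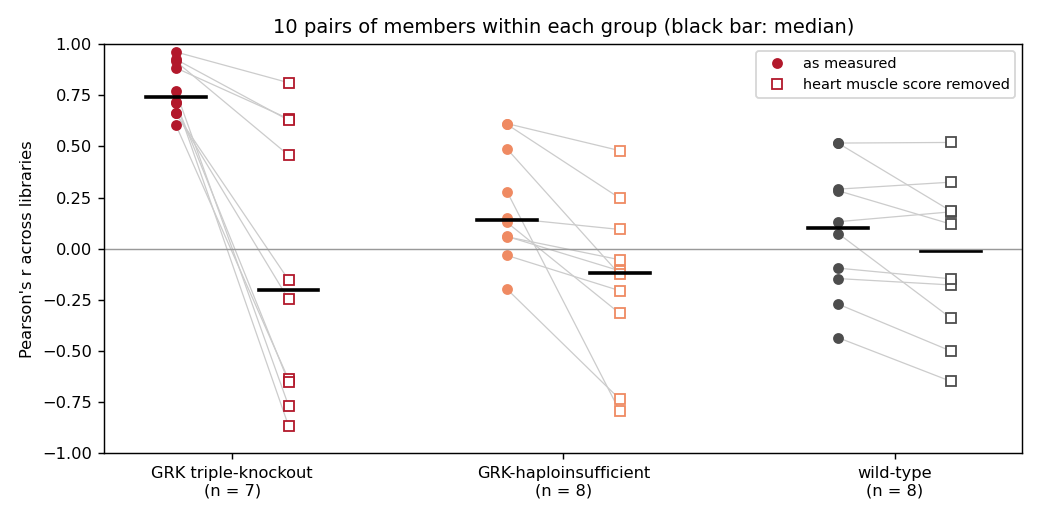
Pearson's r (y axis) of the 10 pairs of members within each genotype (x axis), as measured (filled circles) and with the heart muscle score removed by regression (open squares); grey lines join the same pair and black bars are medians. The median in triple knockouts is 0.74 as measured and -0.20 with the score removed, and in wild-type hearts 0.10 and -0.01.

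Wild-type libraries span only 10.21 to 10.37 on the score, and no triple-knockout library lies within that range. A fit with the score as a term thus rests on a slope carried mostly by the GRK libraries. In that fit the difference from wild type was smaller in size for each member in both GRK genotypes. The log2 fold change of triple knockouts against wild type was then -0.93 (SE 0.10) for Ndrg4, -0.75 (SE 0.16) for Lrrc10, -0.50 (SE 0.10) for Ankrd1, -0.47 (SE 0.08) for Rcan1 and -0.38 (SE 0.09) for Csrp3. For haploinsufficient hearts it was -0.96 (SE 0.09) for Ndrg4, -0.85 (SE 0.15) for Lrrc10, -0.60 (SE 0.10) for Ankrd1, -0.40 (SE 0.07) for Rcan1 and -0.22 (SE 0.08) for Csrp3. Per library, Ndrg4 lay -3.00 ± 0.15 log2 units from the heart muscle score in triple-knockout, -3.05 ± 0.21 in haploinsufficient and -2.08 ± 0.12 in wild-type hearts. Neither GRK group overlapped wild type for Ndrg4, and the share of all genes without overlap was not counted here either. Csrp3 lay -1.24 ± 0.14, -1.13 ± 0.20 and -0.91 ± 0.13 from it in the same 3 groups, and its ranges overlapped with wild type by this measure.

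A pooled reading over all 23 libraries, with the mean of each genotype and ID set removed, gave a median r of 0.50 over the 10 pairs, all 10 positive, from 0.282 to 0.635. Of these, 1 pair passed after adjustment over the 10: Ndrg4 and Rcan1, with r = 0.625 (permutation within the 6 cells of genotype and set, p = 0.00331, adjusted p = 0.0331). The pooled median was 0.245 without triple-knockout replicate 7, -0.03 with the heart muscle score removed, and -0.001 without libraries of carry-over score above 1.5. In that last set 5 of 10 pairs were positive.

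Genes of the same pathways were counted in each comparison. Their lists were set by function, but with earlier results of these data known, so calls against wild type are not independent of that choice. Fhl1 is in both the titin and Z-disc list and the load list that follows. Of 28 tested titin and Z-disc partners, 2 fell in triple knockouts and 2 in haploinsufficient hearts, Fhl1 and Fhl2 in each, and 0 rose. Over all 13941 genes 0.696% were called lower in triple-knockout and 1.38% in haploinsufficient hearts. Fhl1, a LIM-domain protein that binds titin, averaged 99.5 ± 15.3 CPM in triple-knockout, 87.9 ± 7.92 CPM in haploinsufficient and 145 ± 18.2 CPM in wild-type hearts (SD, n = 7, 8 and 8; log2 fold change against wild type -0.55, edgeR adjusted p = 0.00119, in triple knockouts and -0.73, adjusted p = 1.58e-05, in haploinsufficient hearts). Fhl2, its relative enriched in heart, averaged 140 ± 29.3, 147 ± 24.1 and 218 ± 27.9 CPM in the same 3 groups (-0.64, edgeR adjusted p = 0.00396, and -0.57, adjusted p = 0.00832). Tcap (telethonin), which caps titin at the Z-disc, had -0.47 (edgeR adjusted p = 0.147) in triple knockouts. The median log2 fold change of the list was -0.15 in triple-knockout and -0.19 in haploinsufficient hearts, against 0.01 over all genes in each. Without libraries of carry-over score above 1.5, edgeR called 0 of the 28 in triple knockouts (5 at an unadjusted p under 0.05) and the same 2 genes in haploinsufficient hearts.

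Of 21 tested load-responsive genes of heart muscle, 3 fell in triple knockouts and 3 in haploinsufficient hearts: Fhl1, Nppb and Ctgf in each, beside the same 0.696% and 1.38% of all genes called lower. Nppb, which encodes the B-type natriuretic peptide released by stretched muscle, averaged 68 ± 18.1 CPM in triple-knockout, 71.3 ± 16.1 CPM in haploinsufficient and 119 ± 21.9 CPM in wild-type hearts (log2 fold change against wild type -0.79, edgeR adjusted p = 0.00413, and -0.75, adjusted p = 0.00502). Ctgf, a matricellular protein and a target of YAP and TEAD, averaged 67.9 ± 10.4, 73.5 ± 15.3 and 106 ± 23.6 CPM in the same 3 groups (-0.64, edgeR adjusted p = 0.0126, and -0.53, adjusted p = 0.0344). Cyr61, a further YAP target, had -0.36 in triple-knockout and -0.35 in haploinsufficient hearts and did not pass (edgeR adjusted p = 0.174 and 0.118). The list's median was -0.21 in triple-knockout and -0.11 in haploinsufficient hearts, against 0.01 over all genes in each. Without libraries of carry-over score above 1.5, edgeR called 0 of the 21 in triple knockouts (4 at an unadjusted p under 0.05) and 2, Fhl1 and Nppb, in haploinsufficient hearts.

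None of 16 genes of the calcineurin and NFAT pathway was called in either comparison with wild type by edgeR, with 1 at an unadjusted p under 0.05 in triple-knockout and 2 in haploinsufficient hearts; DESeq2 called 0 and 1 (Nfatc2) in the same order. Nfatc2, an NFAT factor, came nearest with -0.77 in haploinsufficient hearts (edgeR adjusted p = 0.106), and had -0.40 in triple knockouts (edgeR adjusted p = 0.607). Ppp3cb, a catalytic subunit of calcineurin, had 0.23 in triple knockouts (edgeR adjusted p = 0.453). The other 3 members of the NDRG family were not called by edgeR or DESeq2, with 0 at an unadjusted p under 0.05 in triple-knockout and 1 (Ndrg1, -0.29) in haploinsufficient hearts, and with Ndrg2, also made in heart, at 0.07 in triple-knockout (edgeR adjusted p = 0.918) and 0.07 in haploinsufficient hearts (adjusted p = 0.856). Of the 20 heart muscle reference genes edgeR called 0 in either comparison, with 3 at an unadjusted p under 0.05 in triple-knockout and 0 in haploinsufficient hearts, and DESeq2 called 1 (Smpx) and 0. They had a median of -0.18 in triple-knockout and 0.02 in haploinsufficient hearts.

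With the targeted genes left out, 1.18% of all genes were called in triple-knockout and 2.24% in haploinsufficient hearts against wild type. Of 18 transcription factors that act in heart muscle, 1 was called in each comparison with wild type. In triple knockouts it was Nkx2-5, the cardiac homeobox factor whose name the Cre driver carries and whose locus is counted among the targeted ones, at 49.8 ± 13 CPM against 98.5 ± 10.4 CPM in wild type (log2 fold change -0.98, edgeR adjusted p = 0.000306); it averaged 70.3 ± 16.2 CPM in haploinsufficient hearts (-0.50, adjusted p = 0.0671). In haploinsufficient hearts it was Myocd (myocardin), the partner of SRF, at 123 ± 30.5 CPM against 170 ± 21.7 CPM in wild type (-0.47, edgeR adjusted p = 0.0407), with -0.41 in triple knockouts (adjusted p = 0.145). Tead1, a factor of the M-CAT letters shown above, had -0.64 in haploinsufficient hearts (edgeR adjusted p = 0.172). Without libraries of carry-over score above 1.5, Nkx2-5 was still called in triple knockouts and Myocd was not called in haploinsufficient hearts. Between the 2 GRK genotypes edgeR called 0 genes of these lists, with 2 of the titin and Z-disc list, 3 of the calcineurin list, 1 of the load list and 3 of the factors at an unadjusted p under 0.05, and DESeq2 called 1, Junb of the load list.

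Markers of other cell types moved with some of these groups. Over all 13941 genes 0.696% were called lower and 0.488% higher in triple-knockout hearts against wild type. In haploinsufficient hearts these shares were 1.38% and 0.861%. Of 10 endothelial and endocardial markers 1 fell in triple knockouts (Npr3, -0.46, edgeR adjusted p = 0.0162) and 3 in haploinsufficient hearts (Cdh5, -0.60, adjusted p = 0.00391; Npr3, -0.51, adjusted p = 0.00506; Tek, -0.45, adjusted p = 0.00506). DESeq2 called Npr3 and Tek lower in triple knockouts and the same 3 genes as edgeR in haploinsufficient hearts. Without libraries of carry-over score above 1.5, edgeR called 0 in triple-knockout (1 at an unadjusted p under 0.05) and 1 (Cdh5) in haploinsufficient hearts. The summed level of the 10 was 1175 to 1456 CPM in triple-knockout, 1122 to 1310 CPM in haploinsufficient and 1227 to 1581 CPM in wild-type libraries. Of 7 tested skeletal muscle markers, 2 rose in each GRK genotype (Tnnt3 and Tnni2), also without libraries of high carry-over score. The median log2 fold change of the 7 was 0.45 in triple-knockout and -0.06 in haploinsufficient hearts, and Actn3, at -0.69 in haploinsufficient hearts (edgeR adjusted p = 0.0826), was called lower there by DESeq2 and by limma. Of 12 tested lung, foregut, liver and thymus markers edgeR called 0 in triple-knockout (6 at an unadjusted p under 0.05, 0 by DESeq2) and 3 higher in haploinsufficient hearts; without libraries of high carry-over score 6 were tested, with 0 called in triple-knockout and 1 (Alb, higher) in haploinsufficient hearts. The summed level of the skeletal muscle markers was 89.54 to 186.2 CPM in triple-knockout, 93.52 to 143.2 CPM in haploinsufficient and 45.5 to 183.1 CPM in wild-type libraries. Of 8 epicardial, 10 mesenchymal and 6 tested red blood cell markers edgeR called 0 in either comparison, with 1, 2 and 0 at an unadjusted p under 0.05 in triple-knockout and 0, 2 and 0 in haploinsufficient hearts; DESeq2 called 1 (Postn, haploinsufficient). Hba-a1 and Hba-a2 were at 0 in every library. Between the 2 GRK genotypes edgeR called 0 of these markers, and DESeq2 called Cdh5, Kdr and Tnnt3, each higher in triple knockouts. The part of these markers in the members' difference from wild type was not tested.

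Genes whose level followed each member most closely were taken from 9902 candidates, by Pearson's r over the 23 libraries after the mean of each genotype and ID set was removed, and are given as descriptions; the libraries share composition and depth. Ndrg4 was followed by Kat2b (an acetyltransferase, r = 0.948) and Pygm (muscle glycogen phosphorylase, 0.937). Rcan1 was followed by Fam189a2 (0.935), Sdpr (a caveolar protein, 0.872) and Srpk3 (a muscle kinase of splicing factors, 0.861). Csrp3 was followed by Trim63 (a ubiquitin ligase of the sarcomere, 0.917), Msln (mesothelin, 0.891) and Sdhd (a mitochondrial subunit, 0.886). Lrrc10 was followed by Wbp1l (0.893), Syngr2 (0.884) and Uchl1 (a deubiquitinase, 0.883), and Ankrd1 by Slc39a13 (a zinc transporter, 0.82), Grhpr (0.818) and Myh6 (alpha myosin heavy chain, 0.816).

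Of the 15 genes taken this way, 14 were not called in either comparison with wild type. Over all genes 1.18% were called in triple-knockout and 2.24% in haploinsufficient hearts. Most genes at large were thus not called either, and nothing is read from the count. The exception was Fam189a2, which fell by 0.60 in triple-knockout (log2 scale, edgeR adjusted p = 0.0189) and by 0.62 in haploinsufficient hearts (adjusted p = 0.0104). Pygm, with the second highest r to Ndrg4, had a log2 fold change of -0.08 in triple-knockout (edgeR adjusted p = 0.904) and -0.08 in haploinsufficient hearts (adjusted p = 0.816), where Ndrg4 had -1.07 and -0.99.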

How the data were processed

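RNA-seq of 23 mouse hearts was used. The authors deposited raw read counts for 23512 features and FPKM values; per the submitters' processing notes, which give no roles, the build was mm10 and the tools included Bowtie2, TopHat2 (version 2.0.10), HTSeq and Cufflinks (version 2.1). The labels' protocols state rRNA depletion and single-end libraries without strand, so antisense reads cannot be told apart. Coordinates are those of the deposited annotation (mm10), which was used for positions only, and promoters are from RefSeq.

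Counts were fitted with edgeR (version 4.0.16, R 4.3.3) by quasi-likelihood over all 23 libraries, modelling genotype and library ID set. TMM scaling and the edgeR expression filter (minimum count 10, minimum total 15) were used, and p-values were two-sided with Benjamini-Hochberg adjustment over 13941 genes at 0.05. The 4 targeted loci (sums of their single-exon features) and Cre were left out of these counts. Log2 CPM used a prior count of 1. Correlations were tested within a genotype by exact permutation of libraries, adjusted over 30 pairs or 48 relations, and over all libraries by 100000 permutations within 6 cells (Python 3.11.15, SciPy 1.17.1). The fit was tested on simulated data first. No pair of libraries of a group differed by as little as sampling noise (lowest chi-square per degree of freedom 5).

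Named are the 5 members, up to 4 genes per partner list and comparison by smallest p, and the 3 genes of highest r to each member, of which 1 is not reported here; cell type markers named by symbol, Smpx and Junb were chosen after their values were seen. The members and lists were chosen with earlier results of these data known. Alternatives were DESeq2 (version 1.42.0), limma (version 3.58.1) on log2 FPKM, other scaling, filters and terms, each ID set alone, each library left out, and leaving out libraries of high carry-over score; list counts under DESeq2 and without those libraries were added after seeing the data.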

Additional observations from a re-analysis of the deposited data

Results flagged for a closer look

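Ankrd1 in haploinsufficient replicate 3 stood apart from its group, at 724.4 CPM where the next highest library had 576 CPM. That gap was 0.531 of the range of the 8 libraries, just above Dixon's critical value of 0.526. The same library was not the highest of its group for Lrrc10, Ndrg4, Csrp3 or Rcan1. This was 1 of 21 sets of values examined this way (5 members and 2 scores in 3 genotypes), and chance gives such a gap in about 1 in 20.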

How the results depend on the processing

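Against wild type, all 360 recomputed member log2 fold changes stayed below 0. That sign follows from how the members were picked, and most of the fits only left out 1 library. By a wide measure, 1 SD between libraries, 357 moved by less and 3 by more. Csrp3 in triple knockouts moved by more, from -0.47 to -0.18 without libraries of carry-over score above 1.5. So did Rcan1 in haploinsufficient hearts, from -0.42 to -0.26 in ID set 1 alone and -0.59 in set 2 alone. Ankrd1 in triple knockouts is among the 357, at -0.58 with all libraries and -0.34 without libraries of carry-over score above 1.5. Fewer members were called without those libraries, as given above. Between the GRK genotypes 0 of 180 recomputed values were called, and signs near 0 turned: Ankrd1 to -0.146 in ID set 1 alone; Lrrc10 to -0.006 in set 2 alone and -0.134 without libraries of carry-over score above 1.5; Ndrg4 to 0.03 with the heart muscle score as a term; Csrp3 to 0.047 in set 2 alone and 0.02 without high carry-over; Rcan1 to 0.038 in set 2 alone. Farther from 0, ID set 1 alone gave the lowest values of Csrp3 and Rcan1. These were -0.544 (SE 0.16, edgeR adjusted p = 0.112) and -0.309 (SE 0.13, adjusted p = 0.272). Leaving out 1 library gave -0.031 to 0.114 for Ankrd1 and -0.069 to 0.144 for Lrrc10. The cause was not tested.

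The count of genes called in triple knockouts against wild type (165) was 296 with only the groups compared, 50 and 51 in ID sets 1 and 2 alone, 80 without high carry-over, 96 with limma without a filter and 291 with DESeq2, and 116 to 184 with 1 library left out. For haploinsufficient against wild type (312) it was 20 and 179 in sets 1 and 2, 118 without high carry-over and 562 with DESeq2, and 152 (without wild-type replicate 8) to 614 (without haploinsufficient replicate 3) with 1 library left out, 9 of 23 such counts moving by over 1.5 times. Between the GRK genotypes (55) it was 88 without a filter, 1 with only the groups compared, 176 and 1 in sets 1 and 2, 0 without high carry-over, 113 with the heart muscle score as a term, 0 in each of the 3 limma fits and 274 with DESeq2, and 10 (without triple-knockout replicate 3) to 415 (without haploinsufficient replicate 3) with 1 library left out, 12 of 23 moving by over 1.5 times. The cause was not tested.

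The median pairwise r in triple knockouts (0.743) was 0.609 on log2(FPKM + 1), -0.2 with the heart muscle score removed, and 0.717 to 0.896 with 1 library left out. In haploinsufficient hearts (0.139) leaving out 1 library gave -0.211 (without replicate 7) to 0.474, and in wild-type hearts (0.103) -0.048 to 0.288. With the mean of each ID set removed within the group the medians were 0.863, 0.32 and -0.015 in triple-knockout, haploinsufficient and wild-type hearts, and the wild-type median was 0.215 without high carry-over. The pooled median (0.501) was -0.029 with the score removed, -0.001 without high carry-over and 0.245 to 0.605 with 1 library left out, lowest without triple-knockout replicate 7. Without high carry-over, too few triple-knockout and haploinsufficient libraries were left for an r within the group.

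Replicate numbers did not pair the libraries: 5 of 22 same-numbered pairs had r above 0.1 (-0.195 to 0.467). With the replicate number as a block, 146, 219 and 16 genes were called in the 3 comparisons (triple knockout and haploinsufficient against wild type, and triple knockout against haploinsufficient), and the pooled median r of members was 0.415. With 7 and 8 libraries a group, and 22 reads of Lrrc10 in the shallowest, depth limits single values.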
